A study of Mus musculus with 10 samples.

Results

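The SoxB and SoxC transcription factors were measured in forebrains of E12.5 mouse embryos. The members are the 7 genes Sox1, Sox2, Sox3 and Sox21 of the SoxB group and Sox4, Sox11 and Sox12 of the SoxC group, out of 19938 genes measured. Each was found by its symbol among the probe sets that name exactly 1 gene, and each had 1 such probe set, so no choice between probe sets arose. In 5 dtg embryos, described as transgenic, a constitutively active allele of FoxO3 was expressed under the forebrain-specific CaMKIIa promoter, and the 5 stg embryos are labelled control. The labels spell out neither dtg nor stg, and leave unsaid which transgenes, if any, the control animals carry. All embryos were on a CD1/NMRI mixed background and came from 2 dams taken 12 days after the plug, and the embryos are not assigned to the dams. Litter and group can therefore not be told apart. Each array holds RNA from part of the forebrain of 1 embryo, cut away from most of the thalamus, while the remainder went to protein and luciferase assays.

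Sox proteins bind DNA through an HMG box. The SoxB1 factors Sox1, Sox2 and Sox3 are held to keep neural cells in the progenitor state, and the SoxB2 factor Sox21 is a repressor that counteracts them and, in chick, promotes neurogenesis. The SoxC factors are most active in cells that have left the cycle, where Sox4 and Sox11 activate neuronal genes such as Tubb3. A shift from SoxB to SoxC expression therefore accompanies the passage from progenitor to neuron in the developing forebrain.

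The bases just upstream of the 3 SoxC genes are printed here, because Sox4 and Sox11 were the pair of members that varied most alike over the embryos and Sox12 was the member whose promoter window held the FOXO motif. They are the RefSeq GRCm38.p6 sequences of the 250 bases before each start, at chr13:28953700-28953949, chr12:27342719-27342968 and chr2:152398047-152398296, all for genes on the minus strand and written 5′ to 3′ along the gene. Capitals mark a FOXO motif.
Sox4: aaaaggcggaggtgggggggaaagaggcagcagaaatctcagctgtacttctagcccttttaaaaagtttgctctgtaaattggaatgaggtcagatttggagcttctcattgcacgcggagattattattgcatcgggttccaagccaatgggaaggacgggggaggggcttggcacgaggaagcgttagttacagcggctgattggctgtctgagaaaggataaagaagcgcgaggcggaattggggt
Sox11: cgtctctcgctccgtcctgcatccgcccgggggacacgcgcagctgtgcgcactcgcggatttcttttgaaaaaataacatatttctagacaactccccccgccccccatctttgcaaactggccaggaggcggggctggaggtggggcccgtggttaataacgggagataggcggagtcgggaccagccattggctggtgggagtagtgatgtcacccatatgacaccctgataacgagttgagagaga
Sox12: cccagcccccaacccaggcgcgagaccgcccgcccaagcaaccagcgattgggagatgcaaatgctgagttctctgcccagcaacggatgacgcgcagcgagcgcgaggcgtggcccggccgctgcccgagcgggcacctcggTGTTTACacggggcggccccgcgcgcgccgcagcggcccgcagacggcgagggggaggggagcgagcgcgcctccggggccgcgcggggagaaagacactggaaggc
The FOXO motif GTAAACA and the Sox motif ACAATG were searched on both strands of windows of 300 bases, 250 before and 50 after the start. The 2 motifs do not contain each other. Windows were found for 6 of the 7 members, all but Sox3. Only the Sox12 window held the FOXO motif, read as TGTTTAC on the strand of the gene and beginning 107 bases before the start, and none of the 6 held the Sox motif. Of all 32851 windows given, 3.65% held the FOXO motif and 12.6% the Sox motif. These matches describe letters and not binding.

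The values are the authors' log2 intensities. The array medians lay between 5.36 and 5.39, and Pearson correlations between arrays over all genes between 0.98 and 0.996. In limma 21 of the 19938 genes passed an adjusted p of 0.05 (Benjamini-Hochberg over all genes). Foxo3 itself, whose probes may not cover the transgene, read 6.98 ± 0.15 in dtg and 6.64 ± 0.14 in stg embryos (SD, n = 5 each; limma adjusted p = 0.218). The array of stg embryo 5 stood apart, with a mean correlation of 0.985 with the other arrays against 0.992 to 0.993 for the others. In it 15 pan-neuronal genes averaged 7.53 log2 units, against 8.41 to 8.66 in the other stg embryos, and 9 mesenchyme genes averaged 8.45 against 6.35 to 7.33. The 11 measured diencephalon genes averaged 6.75 to 7.24 in dtg embryos and 5.53 to 6.90 in stg embryos, with 4 of the 5 dtg embryos above all controls. Of these genes 10 read higher and 1 lower in dtg embryos, with a median log2 difference of 0.79, and 0.69 without stg embryo 5. In limma 0 passed, and 7 had an unadjusted p below 0.05, all higher, where 7.58% of all genes lay below it. Over the embryos no member passed against the mean of the diencephalon list, as set out below. The part of these genes in the group differences was not tested. The 8 measured forebrain genes averaged 7.51 to 7.68 in dtg and 7.16 to 7.78 in stg embryos. In dtg embryos 3 were higher and 5 lower, and 0 passed in limma. At an unadjusted p below 0.05, where 7.58% of all genes lay, were 2 of the 8 forebrain genes. Their smallest p-values were those of Otx2, a gene of forebrain and midbrain, at 0.87 with all dtg embryos above all controls (adjusted p = 0.247), Emx1 at -0.37, Lhx2 at -0.28 and Otx1 at 0.19. Genes of the midbrain and hindbrain averaged 4.62 to 4.93 in dtg and 4.62 to 4.75 in stg embryos. In whole tissue, fewer cells of a type and less RNA per cell cannot be told apart.

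None of the 7 Sox genes passed the test between dtg and stg forebrains. In limma 0 of 7 had an adjusted p below 0.05, where 0.105% of all genes did, and 0 of 7 had an unadjusted p below 0.05, where 7.58% did. In 0 of 7 were the groups free of overlap, against 1.6% of all genes. The exact two-sided permutation p over embryos ran from 0.103 for Sox3 to 0.746 for Sox12 (n = 5 per group). The 4 SoxB genes all read lower in dtg embryos, by between -0.024 and -0.19 on the log2 scale. Of the SoxC genes Sox4 read 0.12 higher, whereas Sox11 and Sox12 were at -0.056 and -0.026. The largest member difference, 0.19 in absolute value, was smaller than the smallest change among the 21 genes that passed, 0.39. Those genes were picked by the same test, which favours large differences, so this comparison adds nothing to it.

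Sox2, the factor that marks neural stem cells most widely, had log2 intensities of 9.82, 10.02, 9.73, 10.05 and 10.05 in dtg embryos 1 to 5, and 10.08, 10.02, 9.80, 10.10 and 9.80 in stg embryos 1 to 5. Both groups held low and high embryos over nearly the same span, and dtg embryo 3 lay below all controls. The difference was -0.024 ± 0.088 (SE, n = 5 per group), with a limma adjusted p of 0.974 and a 95% interval from 0.861-fold to 1.12-fold. The interval spans the differences compatible with these arrays and is not a limit of detection.

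Sox1, a SoxB1 gene and an early marker of the neural plate, read 6.998, 7.46, 7.35, 7.37 and 7.35 in dtg embryos and 7.61, 7.59, 7.20, 7.33 and 7.24 in stg embryos. Embryo 1 of the dtg group lay below every other embryo, and the other 4 dtg embryos lay inside the control range. The difference was -0.091 ± 0.11 (limma adjusted p = 0.895), and -0.014 without dtg embryo 1.

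Sox3, the X-linked SoxB1 gene that is also needed in the hypothalamus, showed the smallest p of the 7. It read 7.04, 7.32, 7.16, 6.91 and 7.18 in dtg embryos, against 7.13, 7.36, 7.41, 7.14 and 7.49 in stg embryos. In 2 dtg embryos, 1 and 4, it lay below all controls, and the upper 3 overlapped them. The difference was -0.19 ± 0.093, or 0.880-fold with a 95% interval from 0.764 to 1.01. It did not pass over all genes (limma unadjusted p = 0.0693, adjusted p = 0.703; exact two-sided permutation p = 0.103). The sexes were balanced, with 3 embryos of female and 2 of male Xist and Y-linked signal in each group. Sox3 averaged 7.09 in female dtg and 7.23 in female stg embryos, and 7.17 in male dtg and 7.43 in male stg embryos. With sex as a covariate the difference stayed at -0.19 (limma adjusted p = 0.741).

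Sox21, the SoxB2 repressor, read 7.65, 7.60, 7.51, 7.92 and 7.75 in dtg embryos and 8.12, 7.95, 7.73, 7.62 and 7.79 in stg embryos. The 2 highest values were those of stg embryos 1 and 2, and dtg embryos 2 and 3 lay below all controls. The difference was -0.16 ± 0.10 (limma adjusted p = 0.79; exact two-sided permutation p = 0.198, n = 5 per group), with a 95% interval from 0.769-fold to 1.04-fold.

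Sox4, a SoxC factor of newly formed neurons, read 9.63, 9.36, 9.65, 9.16 and 9.54 in dtg embryos, against 9.53, 9.50, 9.27, 9.50 and 8.95 in stg embryos. In 3 dtg embryos it was above every control, in embryo 4 it was below all controls but the fifth, and the lowest value of all was that of stg embryo 5. The difference was 0.12 ± 0.12 (limma adjusted p = 0.886; 95% interval 0.897-fold to 1.31-fold). Without stg embryo 5 it was 0.016.

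Sox11, the SoxC factor that acts together with Sox4 in neuronal survival and differentiation, read 10.72, 10.38, 10.64, 10.37 and 10.71 in dtg embryos and 10.86, 10.72, 10.55, 10.78 and 10.20 in stg embryos. Every dtg embryo lay inside the control range, with embryos 2 and 4 low as they were for Sox4. The difference was -0.056 ± 0.12 (limma adjusted p = 0.951), and -0.16 without stg embryo 5.

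Sox12, the weakest activator of the SoxC group, read 7.06, 6.93, 7.05, 6.89 and 6.79 in dtg embryos, against 7.11, 6.98, 7.01, 6.98 and 6.79 in stg embryos. Its groups coincided almost wholly. The difference was -0.026 ± 0.073 (limma adjusted p = 0.967), with the interval from 0.880-fold to 1.097-fold. This is the gene whose window held the FOXO motif printed above.

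**Figure D1:**
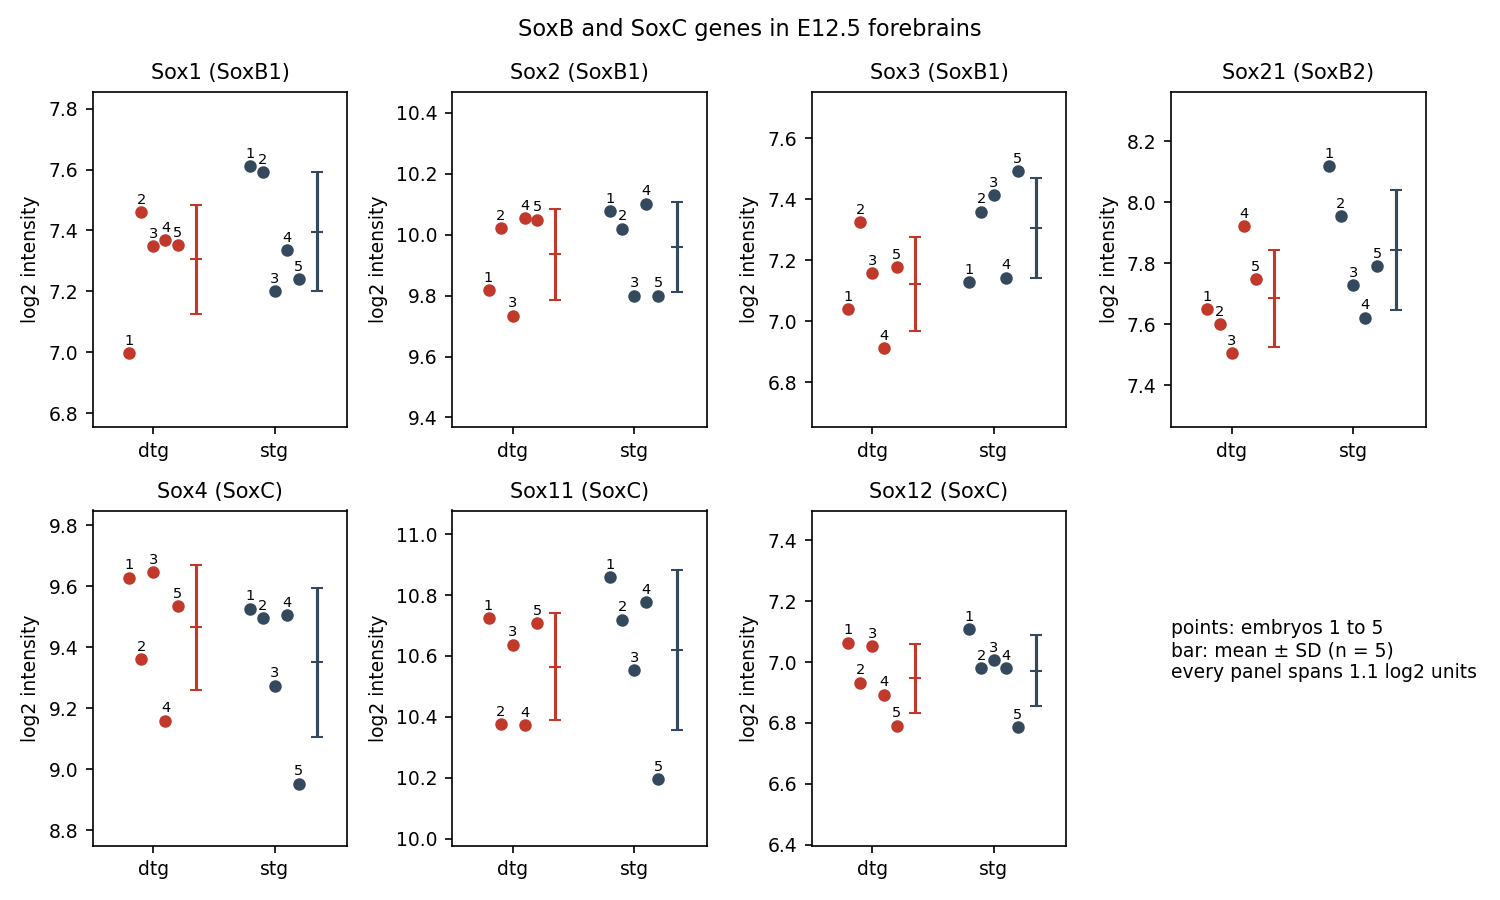
Log2 intensity (vertical axis) of each SoxB and SoxC gene in the 5 dtg (left) and 5 stg (right) forebrains, with points numbered by embryo and bars for the mean ± SD. In all 7 panels the groups overlap, and the lowest Sox4 and Sox11 values, 8.95 and 10.20, are both those of stg embryo 5.

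The balance between the progenitor and the neuronal group was set out for each embryo as the mean log2 intensity of the 3 SoxC genes minus that of the 4 SoxB genes. Its absolute size depends on the probes, so only the spread between embryos can be read, and as a score over the members it was given no test. It was 1.26, 0.79, 1.18, 0.74 and 0.93 in dtg embryos 1 to 5, and 0.93, 0.83, 0.91, 1.04 and 0.56 in stg embryos 1 to 5. Embryos 1 and 3 of the dtg group lay above all controls, dtg embryos 2 and 4 lay below 4 of the 5 controls, and stg embryo 5 was the lowest. The group means were 0.98 ± 0.23 in dtg and 0.85 ± 0.18 in stg embryos (SD, n = 5 each), 0.13 apart, which is less than either SD. Without stg embryo 5 the means were 0.053 apart, which is smaller by over 1.5 times.

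The SoxB mean was 8.01 ± 0.0998 in dtg and 8.13 ± 0.098 in stg embryos (SD), with dtg embryos 1 and 3 below all controls and stg embryos 1 and 2 above all dtg embryos. The SoxC mean was 8.99 ± 0.14 in dtg and 8.98 ± 0.20 in stg embryos. Without stg embryo 5 the control SoxC mean was 9.07 ± 0.091, and the SoxC difference was 0.011 with that embryo and -0.073 without it. The SoxB difference was -0.11 with and -0.13 without it.

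**Figure D2:**
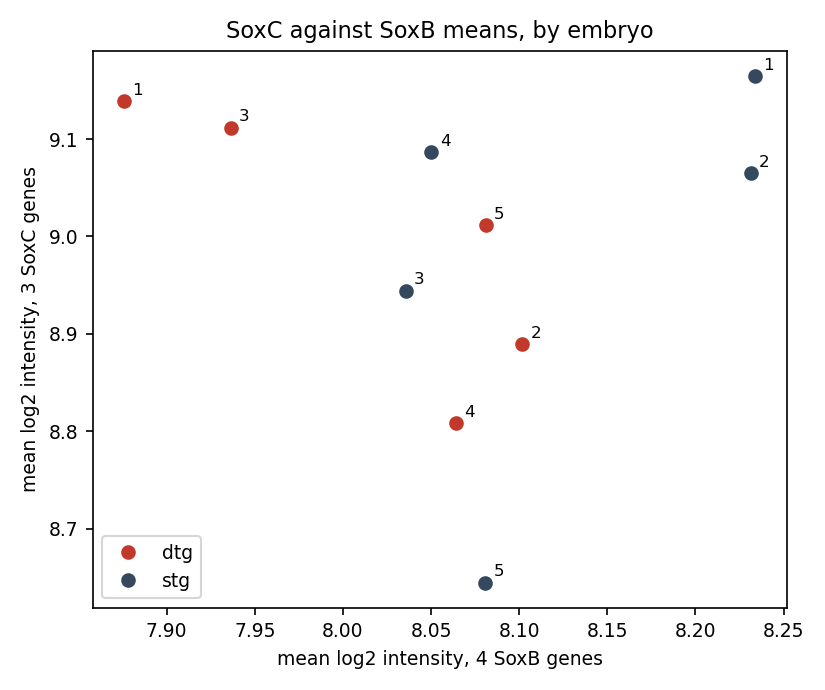
Mean log2 intensity of the 3 SoxC genes (vertical axis) against that of the 4 SoxB genes (horizontal axis), 1 point per embryo, numbered within the dtg and stg groups. Embryos 1 and 3 of the dtg group sit at the low end of the SoxB axis, 7.88 and 7.94, and stg embryo 5 sits lowest on the SoxC axis, 8.64.

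The members were next compared with each other over the 10 arrays, in 21 pairs, each by Pearson's r and Spearman's rho with permutation p-values (100000 resamples, two-sided). The 3 SoxC pairs had r between 0.62 and 0.86, the 6 SoxB pairs between -0.33 and 0.62, and the 12 mixed pairs between -0.40 and 0.30. With stg embryo 5 left out, the SoxC pairs read 0.74 for Sox4 and Sox11, 0.38 for Sox4 and Sox12 and 0.42 for Sox11 and Sox12. The SoxB pairs then lay between -0.17 and 0.60 and the mixed pairs between -0.42 and 0.25. No pair passed after adjustment over the 21, and 1 had an unadjusted p for r below 0.05. That pair was Sox4 and Sox11, with r = 0.86 (permutation p = 0.00416, adjusted 0.0874) and rho = 0.67 (permutation p = 0.0391, adjusted 0.4145). It read 0.58 without dtg embryo 4 and stg embryo 5, the arrays farthest from the median of Sox4, whose removal also narrows the range of Sox4. As deviations from the group means r was 0.95, and 0.89 without stg embryo 5. Of 9968 genes above the median intensity, 6.96% followed Sox4 at least as closely as Sox11 did. Among the SoxB genes Sox1 and Sox2 had r = 0.62 (permutation p = 0.0597, adjusted 0.366) and rho = 0.48 (permutation p = 0.164, adjusted 0.536), with r = 0.52 without dtg embryo 1 and stg embryo 1. Sox3 had r between -0.33 and 0.074 with the other SoxB genes.

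Each member was also set against the mean of 5 gene lists per embryo, 35 relations in all, of which 4 passed an adjusted p of 0.05 by r and 3 of these 4 by rho. Sox4 followed the mean of 15 pan-neuronal genes, which include the synaptic gene Snap25, the neurofilament gene Nefl and the adhesion genes Cntn2 and Ncam1. Its r was 0.95 (permutation p = 6e-05, adjusted 0.00105) and its rho 0.98 (permutation p = 6e-05, adjusted 0.0021). Without dtg embryo 3 and stg embryo 5 r was 0.92, and as deviations from the group means 0.95. Of the genes above the median intensity 2.09% had an r at least as high, a share that includes many genes outside the Sox family.

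Sox11 did not pass against the same list, with r = 0.80 (permutation p = 0.00722, adjusted 0.0505) and rho = 0.67 (permutation p = 0.0408, adjusted 0.196), and r = 0.73 without dtg embryo 3 and stg embryo 5. Its r was 0.61 without stg embryo 5 alone, and 0.94 as deviations from the group means. Sox12 had r = 0.63 (permutation p = 0.0633, adjusted 0.225) and rho = 0.56 (permutation p = 0.0968, adjusted 0.339), and r = 0.25 without those 2 embryos. The SoxB genes had r = 0.012 for Sox1, 0.11 for Sox2, -0.57 for Sox3 and -0.24 for Sox21, with no permutation p below 0.0728. With stg embryo 5 left out, r was -0.36 for Sox1, -0.46 for Sox2, -0.24 for Sox3 and -0.39 for Sox21. Whether the relations differ between genes was not tested.

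Sox4 ran opposite to the dividing and progenitor cell lists. Against 11 G2/M genes, such as the mitotic kinase Aurkb, r was -0.77 (permutation p = 2e-05, the smallest these resamples can give, adjusted 7e-04) and rho -0.95 (permutation p = 0.00016, adjusted 0.0028). Without dtg embryos 1 and 3 this r was -0.90, and 6.27% of genes above the median intensity had an r at least as low. Against 17 neural progenitor genes r was -0.80 (permutation p = 0.00198, adjusted 0.0173) and rho -0.79 (permutation p = 0.00888, adjusted 0.0622), with r = -0.74 without dtg embryos 1 and 3, and 2.76% of genes were at least as low. Sox11 and Sox12 had the same sign, each at r = -0.48 with the G2/M list, and at -0.50 and -0.45 with the progenitor list. Without stg embryo 5 these were -0.31 and -0.33, and -0.41 and -0.35, and neither gene passed. Sox2 had r = 0.39 with the G2/M list (permutation p = 0.262, adjusted 0.382) and rho = 0.018 (permutation p = 0.974, adjusted 0.974). Leaving out dtg embryos 1 and 3 gave Sox2 an r of -0.69, and leaving out stg embryo 5 alone gave 0.64. Sox1, Sox3 and Sox21 had r = 0.45, 0.46 and 0.50 with the G2/M list, and no SoxB gene passed. Their r was 0.60, 0.31 and 0.53 without stg embryo 5, and -0.30, 0.38 and 0.13 without dtg embryos 1 and 3. The Sox11 relation that passed was to the 9 mesenchyme genes, with r = -0.89 (permutation p = 0.0012, adjusted 0.014), rho = -0.83 (permutation p = 0.00388, adjusted 0.0453) and r = -0.74 without stg embryos 1 and 5, and 1.49% of genes were at least as low. Its r was -0.80 without stg embryo 5 alone. Sox4 had r = -0.81 with this list (permutation p = 0.0113, adjusted 0.066) and Sox12 r = -0.54, and neither passed. Without stg embryo 5 these were -0.56 and -0.19. Sox1, Sox2 and Sox21 also had negative r with the mesenchyme list, whereas Sox3 had r = 0.51. Against the 11 diencephalon genes no member passed. Sox21 came closest, with r = -0.63 (permutation p = 0.0603, adjusted 0.225) and rho = -0.79 (permutation p = 0.00864, adjusted 0.0622). Its r was -0.83 without stg embryo 5. Sox4 had r = 0.64 and Sox3 r = -0.61 with this list, and 0.29 and -0.38 without stg embryo 5. The other members had r between -0.25 and 0.31. The lists share arrays and move together, so these relations are not independent of each other.

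**Figure D3:**
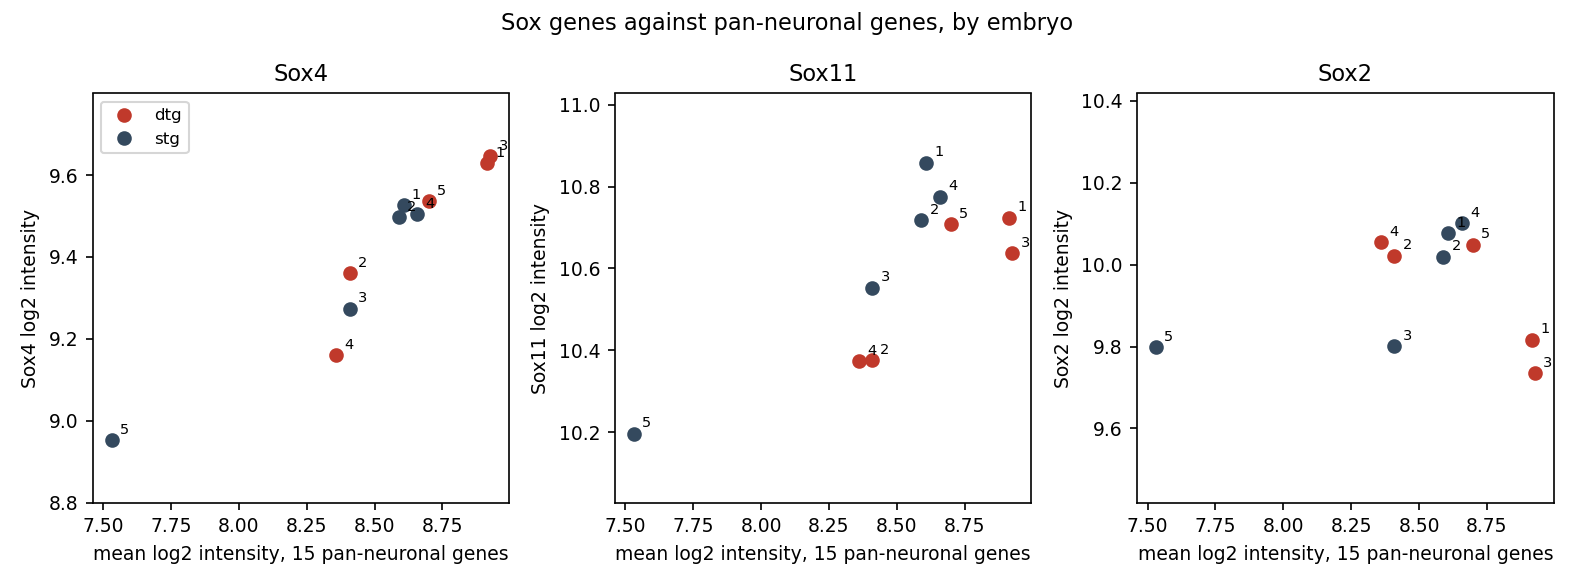
Log2 intensity of Sox4, Sox11 and Sox2 (vertical axes) against the mean log2 intensity of 15 pan-neuronal genes (horizontal axes), 1 point per embryo, numbered within the dtg and stg groups. The r of Sox4 is 0.95 with and 0.93 without stg embryo 5, that of Sox11 is 0.80 with and 0.61 without it, and that of Sox2 is 0.11 with and -0.46 without it.

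By the likeness of their values over the 10 arrays, the genes closest to Sox4 were the splicing regulator Rbfox2 (r = 0.99) and the endocytic scaffold Itsn1 (r = 0.98), chosen as the 2 highest of 9968. Those closest to Sox11 were 0610010F05Rik (r = 0.98) and the myosin motor gene Myo5a (r = 0.97). For Sox12 they were Xkr7 and Cdan1, both at r = 0.90. The nearest genes to the SoxB members had r between 0.90 and 0.94, with the mitochondrial ribosome gene Mrps11 and Sra1 for Sox1, Ttc36 and Mms19 for Sox2, the cholesterol hydroxylase Cyp46a1 and Trak1 for Sox3, and Ankrd45 and Mpped1 for Sox21. No member was among the 2 nearest genes of another. Picking the highest of so many genes over 10 arrays favours large values, so these r are descriptions.

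The other 13 Sox genes did not pass either. Of these 9 read lower and 4 higher in dtg embryos, with a median log2 difference of -0.043 against -0.0038 over all genes, and 0 passed in limma. At an unadjusted p below 0.05 there were 3, 1 higher and 2 lower, where 7.58% of all genes lay below it. Sox6, a SoxD factor that marks cortical progenitors, read 7.32, 7.50, 7.30, 7.57 and 7.44 in dtg embryos and 7.80, 7.69, 7.65, 7.53 and 7.71 in stg embryos, a difference of -0.25 ± 0.070 (limma adjusted p = 0.321). All dtg embryos but the fourth were below all controls. Sox8, of the SoxE group, was at -0.24 (adjusted p = 0.629), and Sox9, the SoxE factor of neural stem cells, at -0.12 (adjusted p = 0.673). The endothelial SoxF gene Sox7 was at 0.21 (adjusted p = 0.562), and it was the 1 Sox gene whose groups did not overlap. The remaining 9 lay between -0.15 and 0.054. The -0.15 was that of Sry, a gene of chromosome Y. Its probe set read 5.65 to 6.15 in embryos of female signal and 5.51 to 5.90 in those of male signal. It did not follow sex, so its signal may not be that of Sry.

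**Figure D4:**
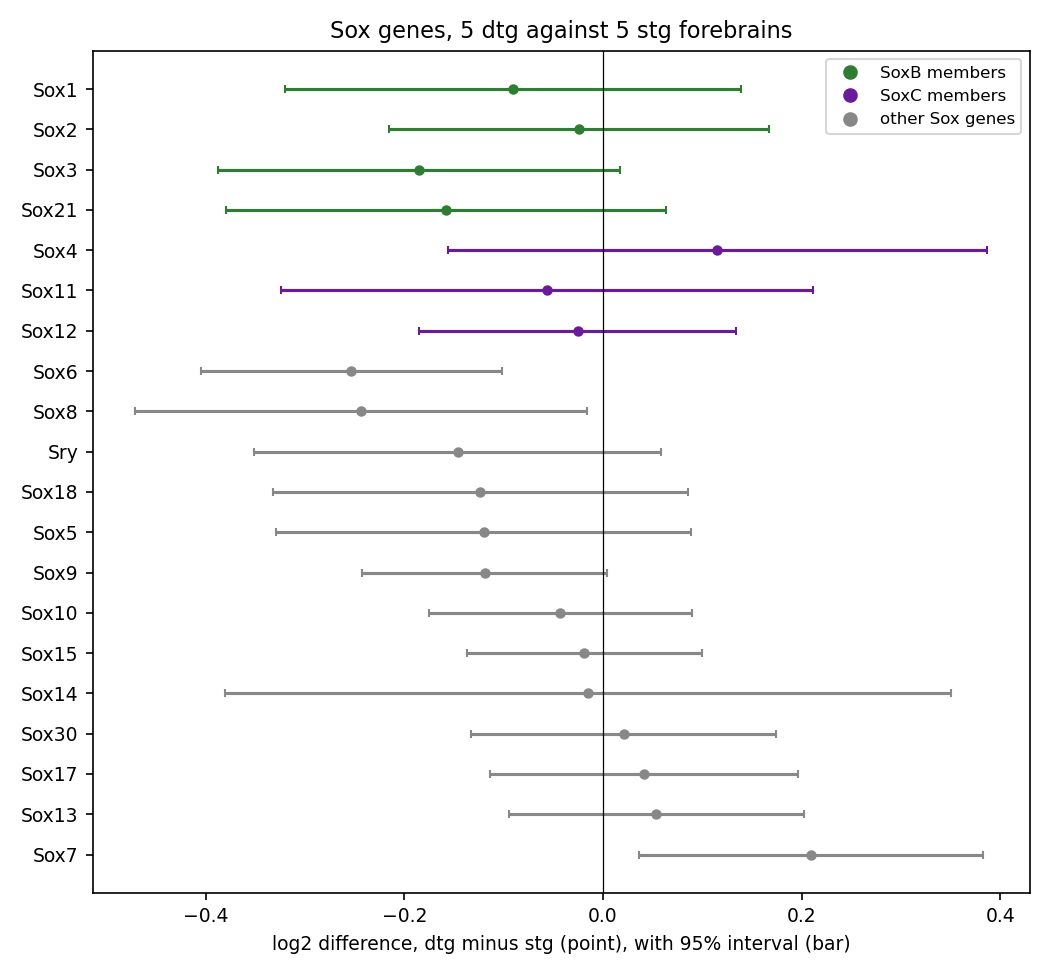
Log2 difference, dtg minus stg, with its 95% interval from limma (horizontal axis), for the 4 SoxB genes, the 3 SoxC genes and the 13 other Sox genes (rows). The intervals of all 7 members include 0, and the difference of Sox6, at -0.25, lies farther from 0 than that of any member.

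Genes that work with SoxB factors, or mark the cells that express them, were read from lists. Pou3f2, a POU factor that pairs with Sox2 on neural enhancers, read 9.18, 9.07, 9.25, 9.05 and 9.22 in dtg embryos and 8.28, 8.06, 8.58, 9.36 and 7.07 in stg embryos. Control embryo 4 was above all dtg embryos and the other 4 controls were below them. The difference of 0.89 ± 0.31 did not pass (limma adjusted p = 0.515) and was 0.59 without stg embryo 5. Pou3f4 was at 0.44, Pou3f3 at -0.15 and Pou3f1 at 0.035, so 3 of the 4 POU genes read higher and 0 passed. Without stg embryo 5, Pou3f4 was at 0.089 and Pou3f1 at -0.018. Pou3f2, Pou3f4 and Pou3f1 were each lowest in that embryo.

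Of 17 neural progenitor genes 7 read higher and 10 lower in dtg embryos, with a median of -0.0086, and 0 passed in limma. At an unadjusted p below 0.05 there were 2, 1 higher and 1 lower, where 7.58% of all genes lay below it. Id4, an inhibitor of bHLH factors, was at -0.33 with all dtg embryos below all controls (adjusted p = 0.196), and Pax6, a regulator of cortical progenitors, was at 0.22 (adjusted p = 0.38). The next were the intermediate filament gene Nes, whose neural enhancer Sox2 binds together with POU factors, at 0.15 (adjusted p = 0.716), and the Notch effector Hes1 at -0.28 (adjusted p = 0.746). Of 11 proneural and intermediate progenitor genes 7 read higher and 4 lower, with a median of 0.15, and 0 passed. Here 8 had an unadjusted p below 0.05, 5 higher and 3 lower, against the same 7.58% of all genes. The smallest p-values were those of Neurod6 at -0.77 (limma adjusted p = 0.0867), Eomes at -0.58, the antiproliferative gene Btg2 at 0.21 and Neurod4 at 0.39.

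Genes reported as SoxC targets did not pass. Tubb3, the neuronal tubulin, read 10.63, 10.22, 10.62, 10.21 and 10.64 in dtg embryos and 10.49, 10.46, 10.21, 10.55 and 9.34 in stg embryos. Embryos 2 and 4 of the dtg group were low, as for Sox4 and Sox11, and stg embryo 5 was the lowest. Its difference was 0.25 ± 0.21 (limma adjusted p = 0.841) and 0.037 without stg embryo 5. The microtubule protein gene Dcx was at 0.17 and Tead2, a transcriptional effector of the Hippo pathway, at -0.12 (adjusted p = 0.913 and 0.783), and without stg embryo 5 Dcx was at -0.061. Of the 15 pan-neuronal genes 14 read higher and 1 lower, with a median of 0.34, where 9594 of all 19938 genes read higher. In limma 0 passed, with 0 at an unadjusted p below 0.05, where 7.58% of all genes lay below it. Without stg embryo 5 that median was 0.10, with 11 higher and 4 lower. All 11 G2/M genes read lower, where 10344 of all 19938 genes did. The G2/M median was -0.18, and -0.15 without stg embryo 5, and 0 of these genes passed in limma. Of these 4 had an unadjusted p below 0.05, where 7.58% of all genes did.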

How the data were processed

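RNA from the forebrains of 10 mouse embryos was hybridized to 1 array each, as biotin-labelled sense target, per the labels' protocols. The authors deposited log2 intensities of 35556 probe sets. The submitters' processing notes name Affymetrix Expression Console, whose version and settings are not given in the sources used here. No further normalization, filter or pseudocount was applied. The platform's gene table named 1 gene for 21789 probe sets, several for 1621 and none for 12146. Each of 19938 genes was represented by its brightest probe set. Groups came from the sample titles.

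The members and lists were chosen with earlier results of these data known. All genes were fitted with limma 3.58.1 in R 4.3.3 (group only, empirical Bayes, two-sided, Benjamini-Hochberg over all genes). The procedure was tested on simulated data. Single members were also compared by exact permutation over 252 assignments, whose smallest p is 0.00794. Between dtg and stg embryos, scores over members and lists were given as counts, medians or means with no test. Over the embryos, members were also correlated with each other (21 pairs) and with list means (35 relations), by Pearson's r and Spearman's rho. These correlations had two-sided permutation p-values from 100000 resamples, adjusted over the 21 pairs and over the 35 relations separately. The named genes were all members, all Sox and POU genes, up to 4 genes of smallest p per list, Foxo3, and the 2 genes most like each member.

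Replicate numbers were not used as pairs: same-numbered embryos had correlations of deviations between -0.25 and 0.24, and in 0 of 5 cases was the control of the same number the closest. Other settings tried were a replicate block, 1 embryo left out at a time, a mean-variance trend, robust variances, weighted arrays, quantile or median normalization, no genes under the 40th percentile, averaged probe sets, sex as a covariate, and a threshold of 0.1. The lists without stg embryo 5 were added after seeing the data. The number of arrays limits the precision, and p-values measure the spread between these embryos.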

Additional observations from a re-analysis of the deposited data

Results flagged for a closer look

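Sox1 in dtg embryo 1 was flagged because it lay far from the other 4 embryos of its group. It read 6.998 log2 units, with the nearest other dtg embryo at 7.35, and the gap was 0.757 of the range of the group, above Dixon's critical ratio of 0.71 for 5 samples. It was the single flag among 20 checks, covering the 7 genes and 3 summary means in both groups. Chance flags about 1 in 20 groups. In the same embryo the SoxB mean, at 7.88, and the G2/M mean, at 8.02, were the lowest of all 10 embryos. The SoxB mean includes Sox1, so its low value is not separate from the flagged one.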

How the results depend on the processing

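No member passed in any of the 20 alternatives run. Over the fits that left out 1 embryo the log2 difference ran from -0.14 to -0.014 for Sox1, -0.064 to 0.026 for Sox2, -0.24 to -0.13 for Sox3, -0.22 to -0.089 for Sox21, 0.016 to 0.19 for Sox4, -0.16 to 0.0031 for Sox11 and -0.072 to 0.013 for Sox12. Sox2, Sox11 and Sox12 thus changed sign in some of these fits. With all embryos their differences were -0.024 ± 0.088, -0.056 ± 0.12 and -0.026 ± 0.073 (SE), each smaller than its SE. The cause of the changes in sign was not tested. Sox2 also turned to 0.011 with quantile normalization. The SoxC minus SoxB difference ran from 0.053 without stg embryo 5 to 0.18 without dtg embryo 4. The number of all genes that passed ran from 7 without dtg embryo 1 to 58 without stg embryo 4. It was 2 with the replicate block, whose use changed no call on the members, 39 with array weights and 55 at a threshold of 0.1, which admits more genes by construction. The width of the intervals, set by 5 arrays per group, leaves differences of the members' size undetected.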
